A study of Homo sapiens with 9 samples.

Results

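TFAM and 7 genes that work with it on mitochondrial DNA were examined on 9 expression arrays of HEK293 cells that make normal or misfolded surfactant protein C. The 8 genes were TFAM, TFB1M, TFB2M, POLRMT, POLG, POLG2, SSBP1 and NRF1. A probe set, the group of short probes on the array that together give 1 signal, was taken when the platform annotation named only 1 of these genes. This gave 27 of the 54613 probe sets that are not array controls, for 8 of the 19775 genes named in this way. TFAM was chosen because its signal on the Ex4 arrays had been seen to stand above WT. Its values are therefore given as a description with no test, against WT in both mutants and between the mutants. Each of these comparisons shares the Ex4 or WT arrays with that choice. The other 7 genes were chosen by function, though with earlier results of these data known.

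HEK293 is a human embryonic kidney line, and surfactant protein C is a lung protein that alveolar type II cells make. The cells of all 3 groups were transiently transfected with a form of it. The Ex4 group received a form that lacks exon 4, the LQ group received a form with the L188Q substitution, and the WT group received the wild-type protein, with 3 arrays per group. The control was thus itself a transfected, overexpressing culture. No vector-only or untransfected cells were analysed here, and the promoter of the construct, the share of cells transfected and the time after transfection are not given in the sources used here. Nothing in the labels tells whether the 3 arrays of a group came from separate cultures, and every p-value here therefore reflects array-to-array spread that may be technical.

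Mitochondria carry their own circular genome, which encodes subunits of the respiratory chain, while the proteins that copy and read it are encoded in the nucleus. TFAM packs mitochondrial DNA into nucleoids and bends it at the promoters, where the RNA polymerase POLRMT starts transcription together with TFB2M. TFB1M, a relative of TFB2M, methylates the small ribosomal RNA of mitochondria. POLG and its accessory subunit POLG2 copy the genome, and SSBP1 coats the single strand that is exposed in the process. NRF1, nuclear respiratory factor 1, is a transcription factor that binds the promoters of many nuclear genes for mitochondrial proteins, TFAM among them.

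The 250 bases before the annotated start of TFAM and of TFB2M are shown because these genes had the members' clearest differences from WT. Capitals mark a match to the NRF1 motif GCGCANGCGC on either strand. The sequences are from RefSeq, build GRCh38.p14, and read 5′ to 3′ on the strand of the gene. TFAM lies at chr10:58385410-58399220 on the plus strand and the window before it at chr10:58385160-58385409. TFB2M lies at chr1:246540561-246566261 on the minus strand and its window at chr1:246566262-246566511.
TFAM: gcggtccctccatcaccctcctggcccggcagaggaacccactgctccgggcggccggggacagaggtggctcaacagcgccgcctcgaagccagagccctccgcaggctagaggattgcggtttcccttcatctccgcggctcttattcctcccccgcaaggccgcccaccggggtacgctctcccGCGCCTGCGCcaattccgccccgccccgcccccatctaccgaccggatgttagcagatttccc
TFB2M: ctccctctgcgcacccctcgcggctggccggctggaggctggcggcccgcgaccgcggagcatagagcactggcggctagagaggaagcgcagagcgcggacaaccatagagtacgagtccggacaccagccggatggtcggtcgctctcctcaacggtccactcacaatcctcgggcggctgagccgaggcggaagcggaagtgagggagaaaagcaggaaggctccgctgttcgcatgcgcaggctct
The match in the TFAM window begins 63 bases before the start and fits the motif only when read on the opposite strand. The exact letters of the motif, on either strand, are not in the TFB2M window. Near its end the window holds tcgcatgcgc, which differs from the motif in its first letter only. Such near matches were not counted, so the search does not show that TFB2M lacks an NRF1 site.

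For 3 other members the window held the motif too, and each match is shown with up to 10 bases on either side so that the sites can be set against that of TFAM. They lie at chr6:155314597-155314626 for TFB1M, chr19:633542-633571 for POLRMT and chr17:64497055-64497078 for POLG2, all on the minus strand.
TFB1M: gcaggacttaGCGCATGCGCtctcagcacg
POLRMT: ggcggcgcggGCGCATGCGCaggcgcgggc
POLG2: cacctccgttGCGCCTGCGCcgtg
These matches begin 132, 24 and 14 bases before the start. That of POLG2, like that of TFAM, fits the motif only when read on the opposite strand. In POLRMT a second match overlaps the first and begins 18 bases before the start. Each gene was searched over the 250 bases before to the 50 bases after each annotated start, and 7 of the 8 members were matched in the RefSeq promoter table, all but NRF1. The NRF1 motif was found in 4 of these 7 genes and in 5.78% of all 35116 promoter windows. The ETS motif CCGGAAG, which GABPA can bind, was found in 4 of the 7 (TFB1M, POLRMT, POLG2 and SSBP1) and in 10.3% of all windows. The SP1 motif GGGCGG was found in all 7 and in 45% of all windows. A match is a string of letters and not a measured binding site.

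Values are linear MAS5 intensities, in which brightness of different probe sets cannot be compared, and changes were fitted on log2(intensity + 16), which understates changes of dim probe sets. Probe sets whose mean lay under percentile 40 were not tested, which left 32768. All 8 genes kept at least 1 probe set, and 19 of the 27 probe sets were tested, of which 15 lay above the array's median on all 9 arrays. The 8 that were not tested, 1 for TFB1M, 3 for TFB2M, 2 for POLRMT, 1 for POLG and 1 for NRF1, had signals between 1.5 and 461.9. A call is a limma p-value, adjusted over all tested probe sets, below 0.05.

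The array medians were 316.1 to 434.3 in Ex4, 303.9 to 371.8 in LQ and 506.4 to 524.4 in WT, although the trimmed means, from 1493 to 1495, were nearly equal on all 9 arrays. The tested probe sets as a whole had a median log2 change of -0.12 in Ex4 and -0.15 in LQ against WT, which became 0.37 and 0.44 when each array was centred on its median, so the direction of a small change depends on the scaling. Ex4 replicate 1 correlated as well with the WT arrays (mean r = 0.911) as with its own group (0.906). The ratio of 3′ to 5′ signal of GAPDH, a sign of RNA integrity, was 1.12 ± 0.14 in Ex4, 1.07 ± 0.016 in LQ and 1.31 ± 0.11 in WT (SD, n = 3). That of ACTB ran the other way, at 1.35 ± 0.18 in Ex4, 1.18 ± 0.041 in LQ and 1.13 ± 0.12 in WT. All 5 markers used for the HEK293 line were above the array's median on all arrays. Of other lists, 2 of 6 alveolar type II markers, 1 of 4 fibroblast markers and 1 of 5 blood markers were above it on all arrays. The summed signal of the alveolar type II list was 3683.5 to 4301 in Ex4, 4095.9 to 5044 in LQ and 4098.8 to 6266 in WT. That of the fibroblast list was 4384.5 to 5823.6 in Ex4, 3055.1 to 4170.3 in LQ and 6194 to 7428.8 in WT, and that of the blood list was 1328.6 to 1543.5 in Ex4, 1264.1 to 1283.2 in LQ and 2348.3 to 2928.2 in WT. The part of the RNA ratios and of these markers in the results below was not tested.

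TFAM transcript signal was higher in both mutants than in WT. The clearest difference was on probe set 203176_s_at, where the signal averaged 6957 ± 742.2 in Ex4 and 8024 ± 279.7 in LQ, against 2637 ± 125.0 in WT (SD, n = 3). All 4 TFAM probe sets had a positive change in both mutants, but the sizes were unequal. In bulk RNA more transcript per cell and more cells that make it cannot be told apart.

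On 203176_s_at the Ex4 arrays read 6145.2, 7124.4 and 7601 and the LQ arrays 7942.3, 7794.2 and 8335.4, against 2763.1, 2633.4 and 2513.1 on the WT arrays. The lowest mutant array was more than 2-fold above the highest WT array. Every LQ array was also above every Ex4 array, as for 5.62% of all tested probe sets. The fitted change was 1.39 ± 0.15 on the log2 scale (SE) or 2.62-fold in Ex4, and 1.60 ± 0.15 or 3.03-fold in LQ. Without each array in turn the change stayed between 1.32 and 1.48 in Ex4 and between 1.57 and 1.63 in LQ. It was 1.34 and 1.53 after quantile normalization, and 1.88 and 2.18 when each array was centred on its median.

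The probe set with the highest mean, 203177_x_at, read 10407.9, 11659.3 and 12690.8 in Ex4 and 10867.7, 11184.7 and 9869.7 in LQ, against 8882.3, 5544 and 5031.5 in WT. The groups did not overlap, but WT replicate 1 was well above the other WT arrays. The change was 0.88 ± 0.20 in Ex4 and 0.76 ± 0.20 in LQ (SE), that is 1.84-fold and 1.69-fold. Probe set 208541_x_at read 1612.7, 2421.5 and 2416.3 in Ex4 and 2079.6, 1795.9 and 2189.2 in LQ, against 1539.5, 1181 and 1700.7 in WT. Here all LQ arrays were above WT, while Ex4 replicate 1 lay within the WT range. The change was 0.53 ± 0.23 in Ex4 and 0.46 ± 0.23 in LQ (SE).

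Probe set 238443_at read 1393.8, 1026.7 and 2021.5 in Ex4 and 2124.8, 1939.6 and 1879.6 in LQ, against 1361.6, 1164.8 and 1291.4 in WT. The LQ arrays were again all above WT, while the Ex4 arrays spanned the WT range. The change was 0.16 ± 0.25 in Ex4 and 0.63 ± 0.25 in LQ, and the Ex4 change turned negative, to -0.08, without Ex4 replicate 3. Across the 9 arrays the Pearson correlations between the 4 probe sets ran from 0.40 to 0.87, as a description over arrays that share their group differences. The name ending x marks probe sets whose probes can bind other sequences, and the RefSeq table holds the processed copies TFAMP1, a transcribed pseudogene, and TFAMP2. How much such copies add to the TFAM signal was not tested.

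**Figure D1:**
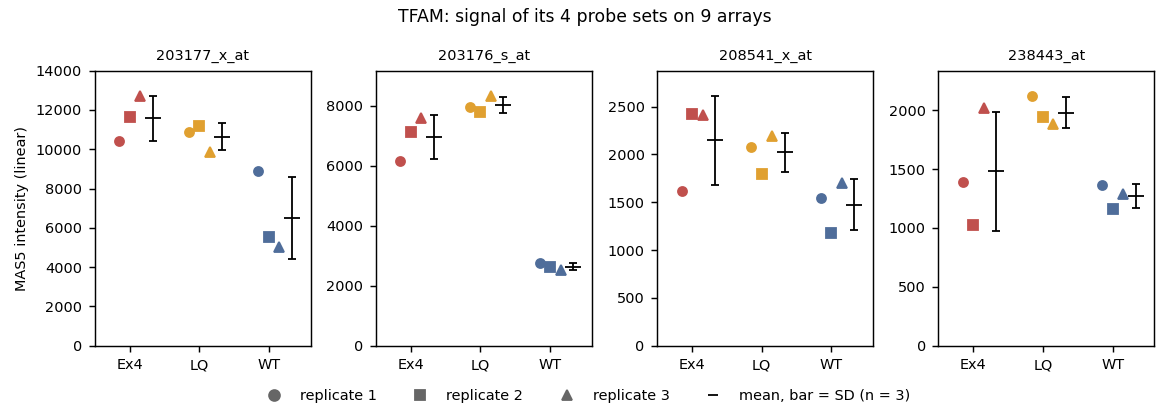
Linear MAS5 intensity (vertical axes, from 0) of the 4 TFAM probe sets on each Ex4, LQ and WT array, with the mean and SD of 3 arrays beside the points. On 203176_s_at all Ex4 and LQ arrays, at 6145.2 or more, lie above all WT arrays, at 2763.1 or less, while on 238443_at the Ex4 arrays span the WT arrays.

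The 2 mutants were compared with each other directly. The TFAM changes of LQ against Ex4 are given as a description with no test. On the log2 scale they were -0.12 ± 0.20 on 203177_x_at and 0.21 ± 0.15 on 203176_s_at (SE). They were -0.07 ± 0.23 on 208541_x_at and 0.47 ± 0.25 on 238443_at. The signs were mixed, and these values do not show whether the mutants differ in TFAM. Of the 15 tested probe sets of genes other than TFAM, limma called none between the mutants, and none had an unadjusted p below 0.05. Among all tested probe sets 0.0061% were called and 4.1% had an unadjusted p below 0.05.

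Among the transcription factors that join TFAM at the mitochondrial promoters, TFB2M was higher in LQ than in WT. Its tested probe set, 218605_at, read 2706.5, 3138.5 and 3587.9 in Ex4 and 3955.4, 3570.3 and 4286.2 in LQ, against 2707.9, 2220.4 and 2115.4 in WT. The LQ arrays did not overlap WT, while the lowest Ex4 array was level with the highest WT array. The change in LQ was 0.75 ± 0.19 (SE), or 1.68-fold, with a limma adjusted p of 0.0401. In Ex4 it was 0.42 ± 0.19, with a limma adjusted p of 0.191, which did not pass. The change of LQ against Ex4 was 0.33, with a 95% interval of -0.08 to 0.73, so the mutants were not shown to differ.

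The TFB2M call in LQ was close to the threshold. It was lost after quantile normalization (adjusted p = 0.0554), without the filter on dim probe sets (0.0503) and without the variance trend (0.0708), and it was also lost without any 1 of the LQ arrays and without WT replicate 2 or 3 (adjusted p up to 0.147). The change itself remained 0.72 after quantile normalization. It was the only call among the 15 tested probe sets of the 7 genes other than TFAM in LQ against WT, where 6.81% of all tested probe sets were called and 3.09% were called higher. A single call among 15 is near that background share, and so is no result about these genes as a group.

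TFB1M and the polymerase POLRMT were not called in either mutant. TFB1M probe set 219169_s_at read 4223.7, 2537.5 and 2829.6 in Ex4 and 3921.2, 3380.5 and 3249.6 in LQ, against 3197.6, 3093.8 and 3463.9 in WT. The groups overlapped, and the Ex4 arrays were the most scattered. The change was -0.06 in Ex4 (95% interval -0.51 to 0.39) and 0.11 in LQ (-0.34 to 0.56). Another TFB1M probe set, 228075_x_at, ran from 3015.2 to 3741.6 in Ex4, from 2775.5 to 3446.9 in LQ and from 3047.6 to 3549.2 in WT, with changes of 0.05 and -0.08.

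The third TFB1M probe set, 232022_at, read 854.6, 944.7 and 1147.6 in Ex4 and 867.2, 606 and 706.5 in LQ, against 1099.1, 1701.2 and 1119.1 in WT. All LQ arrays were below WT and the change was -0.82 ± 0.27, which did not pass (limma adjusted p = 0.0796). In Ex4 it was -0.39 ± 0.27 (limma adjusted p = 0.392), and after centring on the median it was 0.10. The TFB1M probe sets thus differed among themselves in LQ. POLRMT, which makes the RNA of the mitochondrial genome and the primers for its replication, was measured by 203782_s_at. It read 4632.4, 5264.9 and 4670.6 in Ex4 and 4446.7, 5589 and 4422 in LQ, against 4392.8, 4656 and 4871.1 in WT. The groups overlapped, with changes of 0.06 in Ex4 (95% interval -0.29 to 0.42, limma adjusted p = 0.835) and 0.05 in LQ (-0.31 to 0.40, limma adjusted p = 0.871). Intervals of this width do not show that POLRMT was unaltered.

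POLG, the catalytic subunit of the mitochondrial DNA polymerase, gave opposite signs on its tested probe sets. On 203366_at the arrays read 2042.6, 3039 and 3467.9 in Ex4 and 3356.6, 3735.6 and 3993.9 in LQ, against 2021.5, 2787.7 and 1261.4 in WT. All LQ arrays were above WT and the Ex4 arrays overlapped WT. The change was 0.93 ± 0.28 in LQ (limma adjusted p = 0.0638) and 0.53 ± 0.28 in Ex4 (limma adjusted p = 0.264). On 217635_s_at the arrays read 910.1, 940.9 and 1067.2 in Ex4 and 778.2, 1160.7 and 943.7 in LQ, against 1423.5, 1525 and 1648.1 in WT. Here every mutant array was below every WT array, with changes of -0.65 ± 0.23 in Ex4 (limma adjusted p = 0.128) and -0.68 ± 0.23 in LQ (limma adjusted p = 0.0873). None of these changes passed, and no direction is given for POLG.

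POLG2, the accessory subunit that holds POLG on its template, had 1 probe set, 205811_at. It read 1841.8, 1947.5 and 1747.9 in Ex4 and 1810.1, 1740.9 and 1332 in LQ, against 1881.8, 1391.2 and 1390 in WT. WT replicate 1 lay within the Ex4 range, and LQ replicate 3 was below all the WT arrays while the other LQ arrays lay within the WT range. The change was 0.26 in Ex4 (limma adjusted p = 0.478) and 0.07 in LQ (limma adjusted p = 0.86).

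SSBP1, the single-strand binding protein, was evenly measured on its brightest probe set but not on its dimmer ones. Its brightest probe set, 202591_s_at, read 27786.9, 30438 and 27114.8 in Ex4 and 28115.9, 26640.7 and 27958.7 in LQ, against 26312.6, 25833 and 28946.8 in WT. The 3 groups overlapped throughout. The change was 0.07 in Ex4 and 0.03 in LQ, with 95% intervals of -0.20 to 0.35 and -0.25 to 0.31, the narrowest of the members. The dimmer SSBP1 probe sets 214060_at and 1562442_a_at ran from 218.9 to 884.7 in Ex4, 256 to 993.3 in LQ and 437.7 to 1382.1 in WT, also overlapping.

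**Figure D2:**
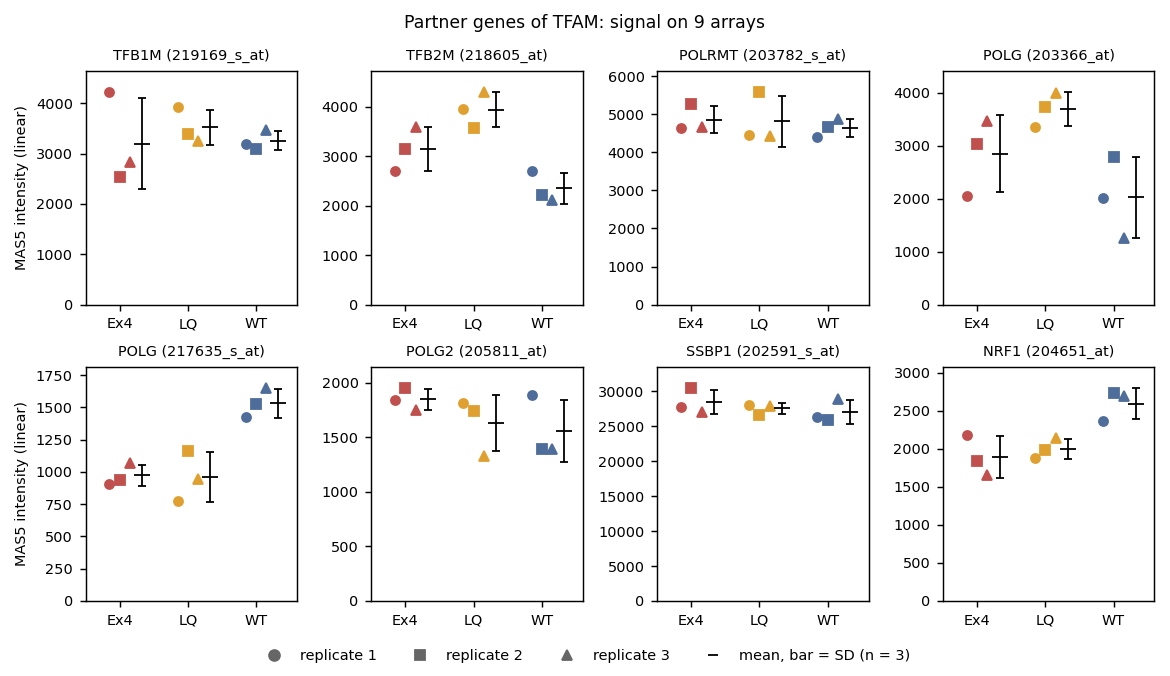
Linear MAS5 intensity (vertical axes, from 0) of 8 probe sets of the 7 genes other than TFAM on each Ex4, LQ and WT array, with the mean and SD of 3 arrays. TFB2M is higher on all 3 LQ arrays than on all WT arrays, while its LQ and Ex4 arrays overlap. The POLG probe sets run opposite ways, and SSBP1 is level across the groups.

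NRF1, the regulator, gave its lower signals on the mutant arrays on its brightest probe set, without passing the test. On 204651_at the arrays read 2186.3, 1838.2 and 1650.9 in Ex4 and 1881.9, 1978.9 and 2138.4 in LQ, against 2364.5, 2728 and 2693.8 in WT. Every mutant array was below every WT array. The change was -0.46 ± 0.19 in Ex4 (limma adjusted p = 0.164) and -0.37 ± 0.19 in LQ (limma adjusted p = 0.213), and it became 0.03 and 0.21 when each array was centred on its median. Relative to the median change of all tested probe sets it was -0.34 in Ex4 and -0.23 in LQ.

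Probe set 204652_s_at of NRF1 read 1002.5, 1202.4 and 1084.9 in Ex4 and 979.9, 1010.5 and 1008.7 in LQ, against 1122.5, 1627 and 1106.7 in WT. All LQ arrays were below WT, with a change of -0.33 (limma adjusted p = 0.364), and the change in Ex4 was -0.21 (limma adjusted p = 0.612). The dimmer NRF1 probe sets 211280_s_at and 243189_at were scattered within WT, from 102.9 to 651.4 and from 51.2 to 773.9. Their changes of 0.26 and 1.41 in Ex4 and 0.28 and 1.22 in LQ had 95% intervals that all contain 0.

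**Figure D3:**
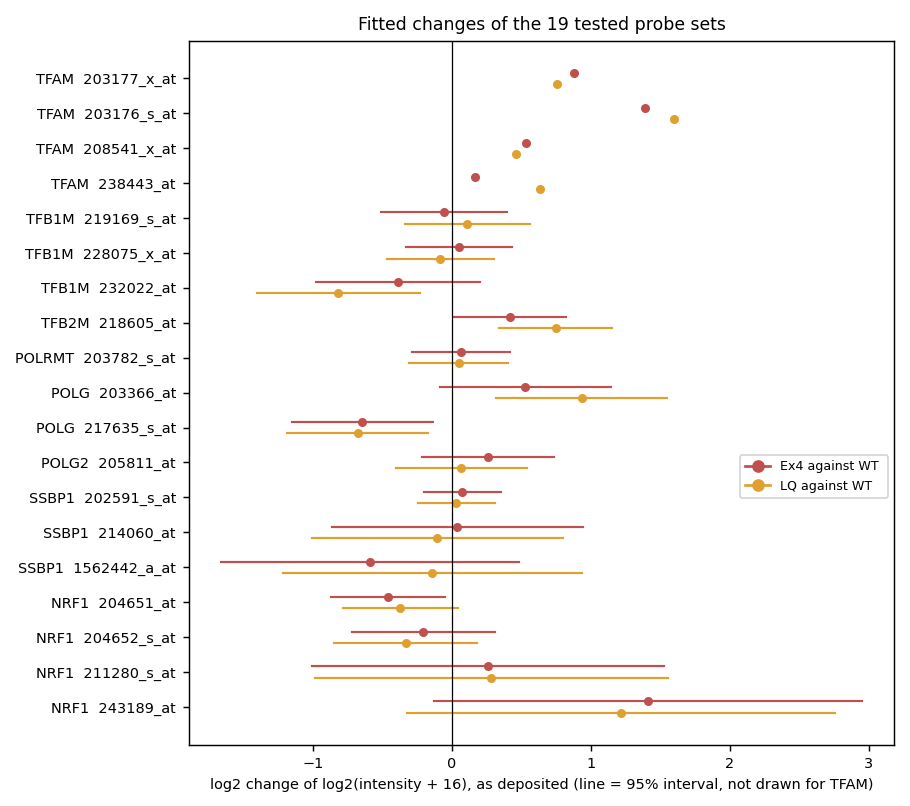
Fitted log2 change (horizontal axis) of Ex4 and of LQ against WT for the 19 tested probe sets of the 8 genes, with 95% intervals as lines for all but TFAM. The TFAM points are all above 0, up to 1.60, while the other genes lie on both sides of it and the dim NRF1 and SSBP1 probe sets have the widest intervals.

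Over the 15 tested probe sets of the 7 genes other than TFAM, limma called 0 in Ex4 against WT, where 0.0122% of all tested probe sets were called, and 3 had an unadjusted p below 0.05, beside 24.9% of all. In LQ 1 was called and 4 had an unadjusted p below 0.05, beside 28.9% of all. All 3 Ex4 arrays were above WT for 0 of the 15 and below for 2, against 7.48% and 15% of all tested probe sets. All 3 LQ arrays were above WT for 2 and below for 4, against 13.1% and 24.2% of all. The median log2 change of the 15 was 0.05 in Ex4 and 0.03 in LQ, beside -0.12 and -0.15 over all tested probe sets. Both mutant comparisons share the WT arrays.

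With both mutants averaged against WT, 1 of the 15 probe sets was called, 218605_at of TFB2M, where 11.7% of all tested probe sets were called and 4.89% were called higher. The averaged TFB2M change was 0.58 ± 0.16 (limma adjusted p = 0.0412). The averaged TFAM changes on 203177_x_at and 203176_s_at, 0.82 and 1.495, are a description for the reason given at the outset.

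Some transcripts of the mitochondrial genome itself, which TFAM, TFB2M and POLRMT transcribe, were lower in LQ than in WT as deposited: those of MT-ATP6, MT-CO1, MT-CO3 and MT-ND2 passed the test, and those of MT-CO2, MT-ND4 and MT-ND6 did not. The array holds 10 probe sets that name only 1 of 7 mitochondrially encoded genes, and all 10 were tested. In LQ 5 were called, all lower, where 3.72% of all tested probe sets were called lower, and 9 of the 10 had all 3 LQ arrays below WT, beside 24.2% of all tested probe sets. In Ex4 limma called 0, with 7 at an unadjusted p below 0.05, beside 24.9% of all tested probe sets. All 3 Ex4 arrays were below WT for 6 of the 10, beside 15% of all. The probe sets are not independent, since these RNAs are cut from long shared transcripts and 3 of the genes have 2 probe sets.

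MT-CO3, a subunit of cytochrome c oxidase, read 11960.1, 18719.1 and 16917 in Ex4 and 11711.2, 11458.3 and 11141.3 in LQ, against 19383.4, 29687.7 and 28394.9 in WT. All mutant arrays were below WT and all LQ arrays below Ex4, the latter as for 6.34% of all tested probe sets. The change was -1.15 ± 0.20 in LQ, 2.22-fold lower (limma adjusted p = 0.02), and -0.70 ± 0.20 in Ex4 (limma adjusted p = 0.0898). MT-CO1, another subunit of the oxidase, read 178822.8, 110507.6 and 163285 in Ex4 and 153947, 132294.6 and 104861.3 in LQ, against 203349.1, 277797.6 and 229839.5 in WT. Its groups did not overlap with WT either, and the change was -0.87 ± 0.21 in LQ (limma adjusted p = 0.0365) and -0.67 ± 0.21 in Ex4 (limma adjusted p = 0.1).

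MT-ATP6, a subunit of the ATP synthase, was called lower in LQ on both its probe sets. On 1553567_s_at it ran from 115545.8 to 162533.7 in Ex4, from 106251.2 to 130927 in LQ and from 182172.6 to 245107.9 in WT. On 242131_at it ran from 1865.8 to 2420 in Ex4, from 1900.8 to 3199.8 in LQ and from 3747.6 to 6370 in WT. On both probe sets every mutant array was below every WT array. The changes in LQ were -0.83 and -1.003 (limma adjusted p = 0.0284 and 0.0406), and those in Ex4, -0.53 and -1.19, did not pass (0.108 and 0.0769). MT-ND2, a subunit of complex I, changed by -0.71 in LQ (limma adjusted p = 0.0439) and by -0.70 in Ex4, where it did not pass (0.0829). The 2 probe sets each of MT-CO2 and MT-ND4 had changes from -0.66 to -0.53 in LQ and from -0.43 to -0.24 in Ex4, none of which passed.

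MT-ND6, a complex I subunit transcribed from the light-strand promoter, unlike the other 6 genes, read 4302.8, 3100.6 and 6782.9 in Ex4 and 4998.6, 4074 and 4970 in LQ, against 4370.6, 4068.8 and 2776.8 in WT. The groups overlapped and the changes were 0.29 in Ex4 (limma adjusted p = 0.526) and 0.34 in LQ (limma adjusted p = 0.417). It was the only 1 of the 10 probe sets with a positive change in either mutant as deposited. Within an array, the median log2 signal of the other 9 probe sets minus that of MT-ND6 was 5.09, 5.16 and 4.58 in Ex4 and 4.72, 4.88 and 4.60 in LQ, against 5.27, 5.91 and 6.07 in WT. A constant scaling factor of an array cancels in this difference, and the mutant and WT arrays did not overlap. The arrays differ by more than such a factor, however, since their medians differed while their trimmed means were nearly equal. After quantile normalization MT-ND6 changed by 0.25 in LQ beside a median of -0.10 over the 10 probe sets. As deposited these values were 0.34 and -0.68, so the gap was smaller after quantile normalization. The within-array difference was chosen after the values had been seen and is given with no test.

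**Figure D4:**
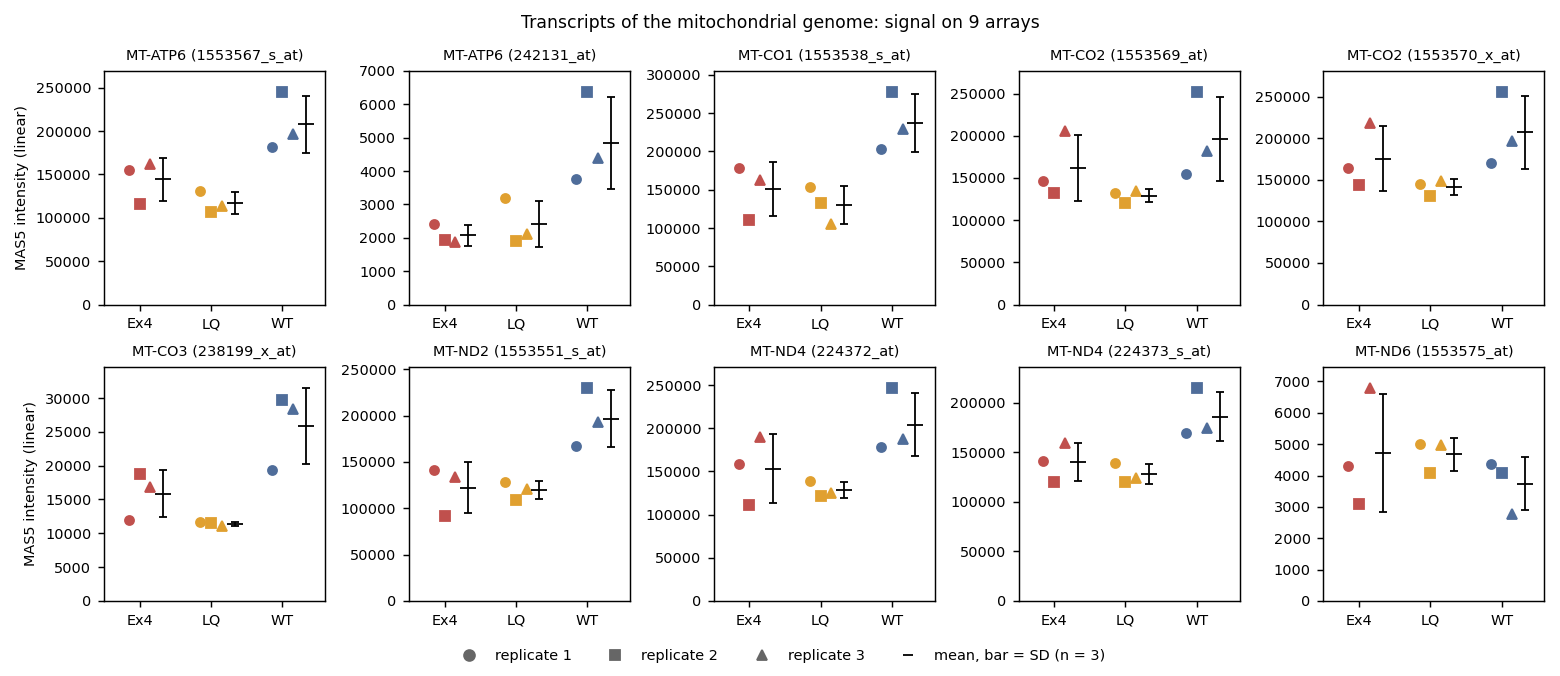
Linear MAS5 intensity (vertical axes, from 0) of the 10 mitochondrially encoded probe sets on each Ex4, LQ and WT array, with the mean and SD of 3 arrays. MT-CO3 is lower on every Ex4 and LQ array than on every WT array, whereas the MT-ND6 groups overlap.

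The size of the mitochondrial change depended on the scaling. The median over the 10 probe sets was -0.48 in Ex4 and -0.68 in LQ as deposited, beside -0.12 and -0.15 over all tested probe sets. It was -0.12 and -0.10 after quantile normalization, and 0.01 and -0.10 when each array was centred on its median. After quantile normalization 2 of the 10 were called lower in LQ, and after centring 0 were called lower and MT-ND6 was called higher. Relative to the median of all tested probe sets the 10 had a median of -0.36 in Ex4 and -0.54 in LQ, both as deposited and centred, and of -0.145 in Ex4 and -0.14 in LQ after quantile normalization. Of the 10 probe sets 7 were among the brightest 1% on the array, and the 547 tested probe sets in that class had a median change of -0.09 in Ex4 and -0.18 in LQ. SFTPC, the transfected gene, another very bright signal, ran on 211735_x_at from 97629.7 to 169241.4 in Ex4 and 108962.6 to 132057.7 in LQ, against 173159.7 to 261955.2 in WT.

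**Figure D5:**
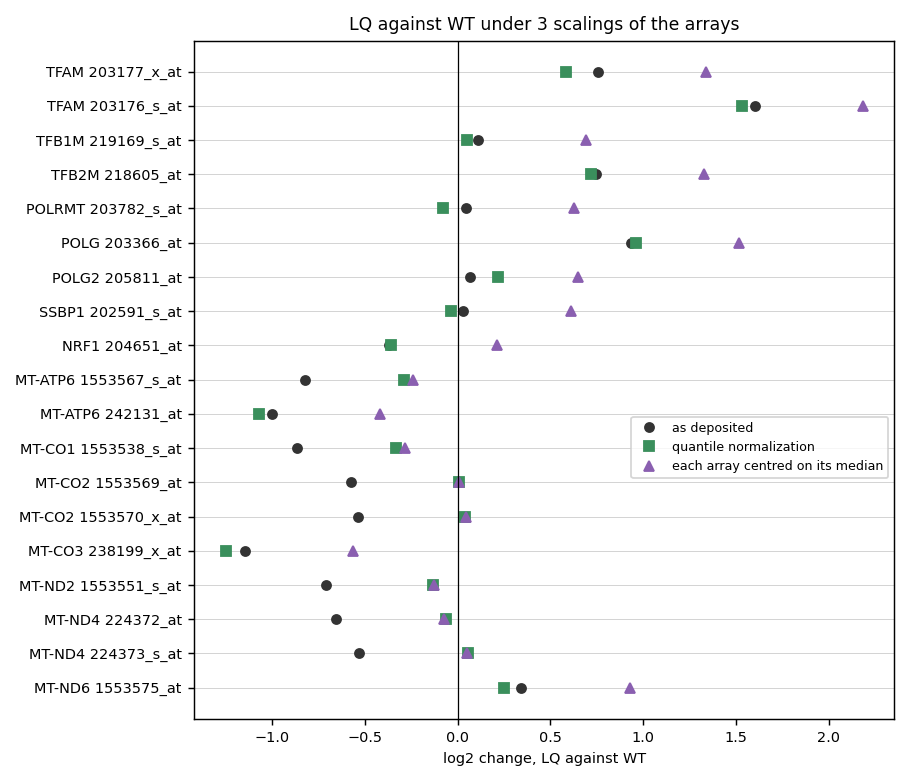
Log2 change of LQ against WT (horizontal axis) for 2 TFAM probe sets, the brightest of each of the other 7 genes and the 10 mitochondrially encoded ones under the deposited scaling, quantile normalization and centring of each array on its median. TFAM and TFB2M stay above 0 under all 3 settings, while NRF1 204651_at and several mitochondrial probe sets move across 0.

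Wider lists of the same machinery were counted with 1 probe set per gene. Of 34 listed genes of mitochondrial DNA replication, repair and transcription 32 were tested, and in LQ 1 was called, where 7.32% of all 14018 genes were called and 3.69% were called higher. It was UNG, the uracil-DNA glycosylase with nuclear and mitochondrial forms, which read 7016.7, 12035.9 and 9675.9 in Ex4 and 13481.2, 14143.1 and 14090.6 in LQ, against 6184.1, 5470.7 and 5145.3 in WT. All mutant arrays were above WT and all LQ arrays above Ex4, the latter as for 5.62% of all tested probe sets. UNG changed by 1.31 ± 0.19 in LQ (limma adjusted p = 0.0131) and by 0.74 ± 0.19 in Ex4, which did not pass (0.0805). In Ex4 limma called 0 of the 32, with 7 at an unadjusted p below 0.05, while 0% of all 14018 genes were called and 27.2% had such a p. The largest other change by the naming rule was that of TOP1MT, the mitochondrial topoisomerase, at -0.99 ± 0.45 (limma adjusted p = 0.196). The list's median change was 0.08 in Ex4 and 0.12 in LQ, beside -0.08 and -0.09 over all 14018 genes.

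Of 22 listed genes of mitochondrial RNA processing 21 were tested, and 2 were called in LQ, both higher, near the share of 7.32% called and 3.69% called higher over all 14018 genes. SLIRP, which stabilises mitochondrial messenger RNAs together with LRPPRC, read 29108.3, 30310.5 and 23298.1 in Ex4 and 30388.3, 30667 and 27998.2 in LQ, against 21876.7, 15827.6 and 14851 in WT. MTPAP, the mitochondrial poly(A) polymerase, read 9979.2, 11517.4 and 11563.7 in Ex4 and 9857.5, 9227.2 and 9848.6 in LQ, against 6472, 6766.6 and 6723.6 in WT. For both genes every mutant array was above every WT array. SLIRP changed by 0.78 ± 0.17 in LQ (limma adjusted p = 0.0307) and by 0.67 in Ex4, which did not pass (0.0809). MTPAP changed by 0.53 ± 0.14 in LQ (limma adjusted p = 0.0439) and by 0.72 in Ex4, which did not pass (0.0763). The unadjusted limma p of MTPAP was smaller in Ex4 (0.000206) than in LQ (0.00224), while that of SLIRP was larger in Ex4. A pass in LQ alone, here and for other genes, therefore does not show that the mutants differ. The list's median change was 0.07 in Ex4 and -0.01 in LQ.

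Of 19 listed regulators of mitochondrial biogenesis 18 were tested, and 3 were called in LQ, all higher, beside 7.32% called and 3.69% called higher over all 14018 genes. CREB1, a cAMP-responsive transcription factor, read 3394.4, 5769.1 and 7916.8 in Ex4 and 6959.9, 6643.5 and 8152.9 in LQ, against 3546.8, 2365.9 and 2566.8 in WT. Its LQ arrays were all above WT while Ex4 replicate 1 was not, and the change was 1.37 ± 0.27 in LQ (limma adjusted p = 0.026) and 0.95 in Ex4, which did not pass (0.0907). NFE2L2, the transcription factor of the antioxidant response, ran from 13720.1 to 16075.1 in Ex4 and 12269.8 to 15814.3 in LQ, against 7247.1 to 8620.2 in WT. It changed by 0.78 ± 0.15 in LQ (limma adjusted p = 0.0254) and by 0.93 in Ex4, which did not pass (0.0763). PRKAA2, a catalytic subunit of the AMP-activated kinase, ran from 3071.9 to 4204.5 in Ex4 and 3341.2 to 4102.4 in LQ, against 1481 to 2939.9 in WT. For both genes every mutant array was above every WT array. PRKAA2 changed by 0.93 ± 0.25 in LQ (limma adjusted p = 0.0464). The list's median change was 0.11 in Ex4 and 0.08 in LQ. In Ex4 limma called 0 genes of these last 2 lists, with 4 of 21 and 5 of 18 at an unadjusted p below 0.05, beside 27.2% of all 14018 genes. Each of the LQ calls of UNG, SLIRP, MTPAP, NFE2L2, CREB1, PRKAA2 and the mitochondrial probe sets was lost without any 1 of the LQ arrays and without WT replicate 2 or 3, with adjusted p up to 0.148, when fewer arrays were fitted. The calls of MTPAP, of MT-ATP6 on 242131_at and of PRKAA2 were also lost without Ex4 replicate 3, and that of PRKAA2 without Ex4 replicate 2.

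The genes whose signals followed TFAM most closely were found by Pearson correlation of log2 values with 203177_x_at over the 9 arrays, among 14017 genes. They were SGPP1 (r = 0.996), DEK (0.989), FGFR1OP2 (0.989), NCL (0.988) and PKN2 (0.988). DEK, a chromatin protein, read 32164.7, 37082.1 and 47529.2 in Ex4 and 39389.6, 35337.2 and 32798.1 in LQ, against 29524.2, 11959.3 and 11753.7 in WT. Like TFAM on this probe set, all 5 had higher means in the mutants and a WT replicate 1 well above the other WT arrays, so the likeness includes the differences between arrays that these genes share. Among the members, TFB2M had r = 0.80 with TFAM, POLG2 0.69, POLG 0.66, SSBP1 0.16, POLRMT 0.14, TFB1M -0.11 and NRF1 -0.93. NRF1, on its probe set of highest mean, 204651_at, thus ran opposite to TFAM over the arrays as deposited, at rank 13951. This r includes the group differences that the arrays share. The change of 204651_at became 0.03 in Ex4 and 0.21 in LQ after median centring, but stayed at -0.43 and -0.36 after quantile normalization. The likeness of other NRF1 probe sets was not tested. Against WT 204652_s_at changed by -0.21 in Ex4 and -0.33 in LQ, 211280_s_at by 0.26 and 0.28, and 243189_at by 1.41 and 1.22.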

How the data were processed

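The deposited table holds linear intensities of 54675 probe sets, 62 of them array controls, on 9 arrays; per the submitters' processing notes the authors made them with MAS5 (version not given in the sources used here). Per the platform annotation 41091 probe sets name 1 gene, 1801 several and 11721 none. The number of arrays limits the precision, and detection calls were not used. Values were used as log2(intensity + 16) without further scaling. Of the probe sets, 32768 at or above percentile 40 of the mean were tested with limma 3.58.1 (R 4.3.3; lmFit and eBayes with a variance trend) in 1 fit of all 9 arrays, two-sided, with Benjamini-Hochberg adjustment over all tested probe sets of a contrast and a threshold of 0.05. For list genes the probe set of highest mean was used. The members, lists and naming rule were chosen with earlier results of these data known. The rule named every probe set of the 8 genes and of the mitochondrial genome, the 4 list genes with the smallest adjusted p among those called in a mutant against WT or else the 2 largest changes, and the 5 genes most like TFAM. The fit was tested on simulated data. Residuals of same-numbered arrays of different groups had correlations of -0.08 to 0.19, and those of differently numbered arrays -0.23 to 0.16. Between LQ and WT the same-numbered values were 0.17, 0.10 and 0.07, and the others ran from -0.13 to 0.03. The numbers were not taken as pairs in the main fit, and a replicate block was run as an alternative. Alternatives were pseudocounts of 1 and 64, quantile normalization, median centring, no filter, a filter at percentile 60, only the arrays compared, no variance trend, a replicate block, array weights, a 2-fold minimum, the average over a gene's probe sets, and each array left out in turn.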

Additional observations from a re-analysis of the deposited data

How the results depend on the processing

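Counts depended on few arrays and on scaling, and the direction of changes near 0 had no stable sign. Of the member probe sets 1 was called in Ex4 against WT, 3 in LQ and 3 in both mutants averaged, counts that include TFAM, whose values chose the set and support nothing here. With median centring these were 4, 8 and 11, and with array weights 2, 7 and 7, while 15.6%, 25.8% and 29.7% of all tested probe sets were called with centring and 16.1%, 26.2% and 27.6% with weights, so calls became more frequent in general. In LQ the count was 1 with quantile normalization, without the filter, without the variance trend or with a 2-fold minimum. Of all tested probe sets 3.54%, 2.81%, 1.35% and 4.47% were called in LQ under these settings, in that order. In Ex4 the member count was 0 without the trend or with only the arrays compared, beside 0.0122% and 0.0061% of all tested probe sets. For both mutants it was 1 without the trend or with the 2-fold minimum, beside 4.64% and 6.27% of all. The DNA machinery list had 0 calls in Ex4 and 1 in LQ, but 8 and 12 with centring, 4 and 3 with array weights, and 2 in LQ with the average over a gene's probe sets. Mitochondrially encoded probe sets had 0 calls in Ex4 and 5 in LQ, but 5 and 9 with array weights, and in LQ 2 with quantile normalization or the 2-fold minimum, 1 (higher) with centring, 3 without the filter and 0 without the trend. Without each array in turn, the member counts ranged from 0 to 3 in Ex4, 1 to 4 in LQ, 1 to 6 in both and 0 to 0 in LQ against Ex4. The machinery counts ranged from 0 to 3 in Ex4 and 0 to 2 in LQ, and the mitochondrial counts from 0 to 5 in Ex4 and 0 to 9 in LQ. In these fits 0.0061% to 13.5% of all tested probe sets were called in Ex4, 0.0244% to 15.2% in LQ and 0.0763% to 22.1% in both. For LQ against Ex4 it was 0.0061% to 0.00916%. The number of calls over the whole array thus varied widely too, and the ranges are not particular to these genes. With the replicate block the member counts were 1 in Ex4, 2 in LQ and 3 in both, and the mitochondrial count in LQ was 4. Of all tested probe sets 0.0122% were called in Ex4, 6.76% in LQ and 12.2% in both with the block. PRKAA2 (adjusted p = 0.054) and MT-ND2 (0.0525) lost their calls in LQ there.

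Changes whose sign turned were these, on the log2 scale. With median centring, in Ex4: TFB1M 219169_s_at 0.43 and 232022_at 0.10, NRF1 204651_at 0.029 and 204652_s_at 0.28, MT-CO2 0.21 and 0.25, and MT-ND4 0.057 and 0.079. With centring, in LQ: TFB1M 228075_x_at 0.50, SSBP1 214060_at 0.48 and 1562442_a_at 0.44, NRF1 0.21 and 0.25, MT-CO2 0.0055 and 0.045, and MT-ND4 0.048. With quantile normalization, in Ex4: POLRMT -0.047, NRF1 204652_s_at 0.0035, and MT-CO2 0.071 and 0.11. With quantile normalization, in LQ: POLRMT -0.080, SSBP1 -0.034, 0.33 and 0.41, MT-CO2 0.0084 and 0.039, and MT-ND4 0.057. With array weights SSBP1 in LQ was -0.016 and 0.27, and NRF1 211280_s_at was -0.13 in Ex4 and -0.17 in LQ. With the average over a gene's probe sets TFB1M in LQ was -0.26, POLG in Ex4 -0.060, SSBP1 -0.16 in Ex4 and -0.072 in LQ, and NRF1 0.25 and 0.20. Without each array in turn the ranges that crossed 0 were, in Ex4, -0.085 to 0.40 for TFAM 238443_at, -0.28 to 0.090 for TFB1M 219169_s_at, -0.033 to 0.12 for TFB1M 228075_x_at, -0.32 to 0.48 for SSBP1 214060_at, -0.55 to 0.69 for NRF1 211280_s_at and -0.0064 to 0.56 for MT-ND6. In LQ they were -0.064 to 0.10 for POLRMT, -0.014 to 0.21 for POLG2, -0.0018 to 0.080 for SSBP1 202591_s_at, -0.46 to 0.34 for 214060_at, -0.67 to 0.27 for 1562442_a_at and -0.53 to 0.72 for NRF1 211280_s_at. The cause was not tested. TFB2M kept a positive change in both mutants under every alternative run. So did TFAM 203176_s_at, but TFAM was chosen for its signal on these same arrays, so for TFAM this is only a description.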
